A study of Homo sapiens with 2 samples.

Results

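Of the 764 SETMAR-HA peaks in the ChIP list, 398 (52.1%, 95% Wilson interval 48.5 to 55.6) were annotated by the authors as intergenic, and these are the peaks described here. The annotation of the peak was the rule that chose them, and the 330 peaks annotated as intronic in the same list served for comparison. Both libraries were made from HAP1, a line of human leukaemia cells that is close to haploid, after knockout of the endogenous SETMAR gene by CRISPR/Cas9. An N-terminally HA-tagged SETMAR was restored from a doxycycline-inducible Sleeping Beauty construct in a polyclonal, puromycin-selected population, and ChIP and input chromatin came from the same cells. The labels give an induction of 24 h and list doxycycline doses from 0.2 to 2 µg/ml without assigning a dose to either library. The methods name a single concentration for ChIP-seq in another unit than these doses. The paper's results name a dose within this range, in µg/ml, as optimal for enrichment in ChIP. At that dose the tagged protein exceeded the endogenous SETMAR of wild-type HAP1 cells. As the units conflict, no dose is given here. One list of positions was analysed for the anti-HA ChIP, labelled as paired-end, and another for the input, labelled as single-end. The methods speak of replicate experiments but the lists do not separate them, so no spread between experiments can be given. The lists hold no peak height or read depth, and each interval or p-value given below covers the number of peaks or sites in these lists only.

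SETMAR, also called Metnase, joins a SET domain of the histone-lysine methyltransferase type to the transposase of Hsmar1, a mariner transposon that spread in the primate lineage. A mariner transposase recognises the inverted terminal repeats (ITRs) at the ends of its element and inserts that element at a TA dinucleotide, which is duplicated on insertion. Most copies left in the human genome are short elements of the MADE1 kind, in which ITRs in inverted orientation flank a short stretch of bases, or single ITRs without a partner.

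The consensus ITR of 19 nt was matched to the GRCh38 (hg38) reference genome on either strand with at most 3 mismatches. The sequences below show the consensus and how an inverted pair was arranged in an intergenic peak, the latter being the first in genome order whose best ITR had 2 mismatches or more. The genomic stretch is on the plus strand, and capitals mark the ITR matches, so the right ITR of the pair reads as the reverse complement.
consensus ITR: GGTGCAAAAGTAATTGCGG
pair with 3 and 2 mismatches, chr1:26656613-26656696: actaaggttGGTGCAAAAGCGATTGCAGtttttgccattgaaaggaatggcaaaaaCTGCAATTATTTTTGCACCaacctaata

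Every intergenic peak had an ITR within 500 bp (0 of 398 without, with a 95% Wilson upper limit of 0.956%), whereas among tiled windows of 1400 bp over the genome, the median length of an extended peak, 0.402% held an ITR. The best ITR had 0 mismatches in 174 peaks (43.7%, 95% Wilson interval 38.9 to 48.6), 1 mismatch in 180 peaks, 2 mismatches in 41 peaks and 3 mismatches in 3 peaks. A single ITR was found in 152 peaks, 2 ITRs in 238 peaks, 3 ITRs in 6 peaks and 4 ITRs in 2 peaks, which made 654 ITRs in all. Partners with more than 3 mismatches were not searched for, so an ITR counted as single may have a more diverged partner. Most of the peaks thus held more than 1 ITR. Inverted pairs with their 5′ ends outward were present in 245 peaks (61.6%).

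The pairs in intergenic peaks were short and mostly unequal in sequence. They spanned a median of 66 bp between the outer ends of the ITRs (interquartile range 65 to 67 bp), and 217 of the 246 pairs spanned at most 100 bp. In 11 pairs both ITRs had 0 mismatches, and an ITR of 0 mismatches faced one of 1 mismatch in 36 pairs, of 2 in 38 pairs and of 3 in 20 pairs. The most frequent combination was 1 mismatch with 2 mismatches, in 49 pairs. In intronic peaks 189 pairs spanned the same median of 66 bp.

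The ITR content of intergenic peaks did not differ detectably from that of intronic peaks. An ITR with 0 mismatches was present in 174 intergenic and 139 intronic peaks (42.1% of the latter), a difference of 1.60 percentage points with a 95% Newcombe interval from -5.61 to 8.75 (Fisher's exact test, two-sided, p = 0.707, adjusted p = 1). Inverted pairs were present in 57.3% of the intronic peaks, 4.29 percentage points fewer than in intergenic peaks (interval -2.86 to 11.4; Fisher's exact test, two-sided, p = 0.255, adjusted p = 0.801). When ITRs with 3 mismatches were not counted, this difference was 9.46 percentage points (Fisher's exact test, p = 0.0105, adjusted p = 0.0741), and among peaks at least 500 bp wide it turned to -3.54. With GENCODE classes of all genes and of protein-coding genes, the difference in ITRs with 0 mismatches turned to -1.53 and -1.13 percentage points. Adjusted values are Benjamini-Hochberg values over the 13 tests made, with a threshold of 0.05. For an alternative setting, its p-value took the place of the main one among the 13, without correction over the 52 alternatives.

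The centres of intergenic peaks lay on or beside their ITRs. The nearest base of an ITR was a median of 8 bp from the centre (interquartile range 0 to 20 bp), 115 centres (28.9%) fell inside an ITR, and the farthest was 172 bp away. For intronic peaks the median was 8.5 bp (interquartile range 0 to 28 bp; permutation test, two-sided, p = 0.555, adjusted p = 1). In the 152 peaks with a single ITR, 70 ITRs were on the plus strand and 82 on the minus strand. Read 5′ to 3′ along the ITR, the peak centre lay downstream of the ITR centre, on the inner side of the former element, in 98 of these peaks (64.5%, 95% Wilson interval 56.6 to 71.6), by a median of 11 bp over all of them. In intronic peaks with a single ITR this share was 73.4% (65.5 to 80.0). Peak starts and ends lie on a grid of 100 bp and no summits are listed. A single centre is thus placed less finely than these distances.

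The width of intergenic peaks ranged from 200 to 900 bp and had a median of 400 bp, an interquartile range of 300 to 500 bp and a mean of 433 ± 170 bp (SD over 398 peaks). They covered 172500 bp of the 330400 bp in the whole list. The widths lie on a grid of 100 bp, the bin size of the authors' coverage. Intronic peaks had the same median and a mean of 434 ± 171 bp (SD over 330 peaks). The means differed by -0.522 bp with a 95% interval from -25.4 to 24.3 bp (permutation test of means, two-sided, p = 0.983). As the medians were equal, the permutation test of medians gives p = 1 by construction. Peaks of at least 500 bp made up 43.7% of the intergenic and 43.3% of the intronic list (two-sided p = 0.940 by Fisher's exact test, adjusted p = 1). The 81 input peaks had a median width of 300 bp, 100 bp less than the intergenic peaks, which did not pass after adjustment (permutation test, two-sided, p = 0.0396, adjusted p = 0.204).

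Intergenic peaks with an exact ITR were wider on average, a difference that passed by means and did not pass by medians. Intergenic peaks with an ITR of 0 mismatches had a median width of 500 bp and a mean of 475 ± 177 bp (SD, 174 peaks), and those with 1 mismatch had a median of 400 bp and a mean of 407 ± 159 bp (SD, 180 peaks). With 2 mismatches the mean was 383 ± 145 bp (SD, 41 peaks), and the 3 peaks with 3 mismatches were 200, 300 and 400 bp wide. The ranges overlapped fully, from 200 to 900 bp with 0 and with 1 mismatch. Between 0 mismatches and 1 to 3 mismatches the medians differed by 100 bp, a single step of the grid (permutation test, two-sided, p = 0.0114, adjusted p = 0.148). The means differed by 73.4 bp (95% interval 40.0 to 107 bp), which passed as an alternative to the medians (permutation test, two-sided, p = 4.0e-05, adjusted p = 0.000520). In intronic peaks the means differed by 97.98 bp, and the difference between the classes of peaks was not detectable (permutation test of means, two-sided, p = 0.327). The medians differed by 100 bp in both classes, so the permutation test of medians gives p = 1 by construction. Pairing did not come with a detectable change in width. The mean was 438 ± 172 bp in 245 intergenic peaks with a pair and 425 ± 166 bp (SD) in 153 without. The interval of the difference of means was -21.1 to 46.9 bp (permutation test of means, two-sided, p = 0.470, adjusted p = 0.962). Both medians were 400 bp, so the permutation test of medians gives p = 1 by construction.

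The 6 widest intergenic peaks were 900 bp wide. They lay on chromosomes 3, 6, 10, 15, 16 and 19, and 4 of them had an ITR of 0 mismatches. The peak at chromosome 10, 78750201 to 78751100, held 3 ITRs, of which 2 had 0 mismatches. The nearest protein-coding genes were RPS24, which encodes a ribosomal protein, 693388 bp to the left, and ZMIZ1, 317866 bp to the right. The peak at chromosome 6, 62982701 to 62983600, held a single ITR of 0 mismatches that contained its centre. The peak at chromosome 3, 67980801 to 67981700, had no exact ITR, and its best ITR carried A12T, where position 1 is the 5′ base of the consensus and the consensus base is written first.

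The 3 intergenic peaks whose best ITR had 3 mismatches show how far the ITR at a listed peak can depart from the consensus. Here capitals mark the mismatched bases, and each ITR is read on its own strand.
chr2:60115901-60115919, plus strand: gCtgcaaaagtCattgTgg
chr7:67976685-67976703, plus strand: ggtgAaaaaTtaattgcAg
chr21:27334686-27334704, plus strand: ggtgcaaaagtTattgcTC
The substitutions were G2C, A12C and C17T on chromosome 2, C5A, G10T and G18A on chromosome 7 and A12T, G18T and G19C on chromosome 21. The sites on chromosomes 2 and 21 had an inverted partner that also had 3 mismatches, and the site on chromosome 7 had none. The peak centres on chromosomes 7 and 21 lay inside the ITR shown, and that on chromosome 2 lay inside its inverted partner.

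To ask whether ITRs between genes lay in peaks as often as those in introns, every ITR on chromosomes 1 to 22 and X was placed by the GENCODE release 44 annotation. Of all 10854 ITRs, 1227 (11.3%) shared a base with a peak extended by 500 bp. The paper also reports a larger set of sites at another significance threshold, for which no shares were computed here. The share was 10.96% of 4326 intergenic ITRs (474 ITRs, 95% Wilson interval 10.1 to 11.9) and 11.3% of 5640 intronic ITRs (639 ITRs, interval 10.5 to 12.2). Stratified by mismatches, the pooled odds ratio of intergenic to intronic was 0.962 (95% interval 0.842 to 1.099; Cochran-Mantel-Haenszel chi-square test on ITR counts, p = 0.592, adjusted p = 1). Among intergenic ITRs the share fell from 44.1% at 0 mismatches (299 ITRs, interval 38.6 to 49.8) to 15.02% at 1 (1232 ITRs, 13.1 to 17.1). It was 6.93% at 2 mismatches (1545 ITRs, 5.76 to 8.30) and 4.00% at 3 (1250 ITRs, 3.05 to 5.23). The intronic shares were 47.1%, 15.5%, 6.35% and 4.67%, and the difference from introns did not pass in any class (Fisher's exact test, two-sided, adjusted p over the 4 classes at least 0.716).

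Intergenic ITRs with 1 to 3 mismatches were counted as in a peak more often where another ITR was within 500 bp, which the counting in part builds in. Solo intergenic ITRs were those with no other ITR of at most 3 mismatches within 500 bp. Of these, 49 of 127 exact matches lay in a peak (38.6%, 95% Wilson interval 30.6 to 47.3). At 1 mismatch 55 of 629 solo ITRs did (8.74%, interval 6.78 to 11.2), at 2 mismatches 10 of 775 (1.29%, interval 0.702 to 2.36) and at 3 mismatches 1 of 711 (0.141%, interval 0.0248 to 0.792). With a neighbour the shares were 48.3%, 21.6%, 12.6% and 9.09%. The intervals overlapped with 0 mismatches and were apart with 1, 2 and 3. A neighbour was defined by the same 500 bp by which peaks were extended. An ITR beside one in a peak was thus mostly counted as in that peak too, whatever its own mismatches. The higher shares with a neighbour are in part set by this definition. The shares of neighbouring ITRs are also not independent, and the difference was not tested.

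ITRs with a single mismatch lay in peaks at shares that ranged widely with the base changed. Among the 1232 intergenic ITRs with 1 mismatch, G18A was the most frequent, and 67 of 375 lay in a peak (17.9%, 95% Wilson interval 14.3 to 22.1). C17T was nearly as frequent, and only 12 of 342 lay in a peak (3.51%, 2.02 to 6.03). A12T lay in a peak in 12 of 20 (60.0%, 38.7 to 78.1) and G10A in 9 of 19 (47.4%, 27.3 to 68.3), shares whose intervals include the 44.1% of exact ITRs. G1A lay in a peak in 1 of 20 and G4A in 1 of 18. In introns the shares were 23.3% for G18A, 4.33% for C17T, 78.6% for A12T (11 of 14) and 44.8% for G10A (13 of 29). These 6 were picked from 12 substitutions seen in at least 15 intergenic ITRs after the values were known, and their differences were not tested. The shares pool solo ITRs with those that have a neighbour, which differed among intergenic ITRs with 1 mismatch (8.74% and 21.6%). Among the 180 intergenic peaks whose best ITR had 1 mismatch, G18A was present in 80, G18T in 16, A12T in 14 and C17T in 11. Of the 1232 intergenic ITRs with 1 mismatch by GENCODE, G18A made up 30.4%, G18T 5.52%, A12T 1.62% and C17T 27.8%. The counts were not tested against these shares.

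The authors' list gives the start and end of the interval annotated as intergenic around each peak, and 2 peaks extended past an end of theirs. The 398 peaks lay in 365 such intervals, of which 335 held 1 peak, 28 held 2, 1 held 3 and 1 held 4. Interval length ranged from 2906 to 3071338 bp around a median of 237571 bp, and the annotated introns around intronic peaks had a median length of 28044.5 bp. The nearer end of the interval was a median of 46412 bp away from the peak centre (interquartile range 13348.5 to 138052 bp). In all, 10 centres were within 1000 bp of an end, 86 (21.6%) within 10000 bp and 272 (68.3%) within 100000 bp. As a fraction of interval length, the median distance to the nearer end was 0.249. The 44 intervals longer than 1 Mb held 54 peaks (13.6%).

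Within these 365 intervals the reference genome holds 1363 ITRs, and 654 of them lay in a peak. The share was 87.3% of 213 with 0 mismatches, 60.1% of 426 with 1, 36.4% of 407 with 2 and 20.2% of 317 with 3. Each interval was included because it holds a peak, so these shares are a description only. ITRs outside the peaks were found in 194 of the intervals, and 24 intervals held an ITR of 0 mismatches outside the peaks.

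The longest interval with a peak was on chromosome 4, 177991751 to 181063089. Its peak at 180062301 to 180063000 was 700 bp wide, had a single ITR with A9T and lay 1000439 bp from the nearer end. The nearest protein-coding genes were AGA, which encodes a lysosomal amidase, 2619864 bp to the left, and TENM3, which encodes a teneurin, 2080987 bp to the right. The second longest was on X (97605997 to 100290643) between DIAPH2 and PCDH19, and the third on chromosome 14 (41905552 to 44503150) between LRFN5 and FSCB, and each held 1 peak of 500 bp with a single ITR of 0 mismatches.

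The interval with 4 peaks was on chromosome 2 (219907566 to 221417026), to the left of EPHA4, which encodes an ephrin receptor. The peaks started at 219911601, 220361401, 220476701 and 220782501 and were 500, 400, 700 and 500 bp wide. The widest of them had the only ITR of 0 mismatches, a single one, and the others had a best ITR of 1 mismatch. All 4 centres lay in introns of genes that are not protein-coding in GENCODE. The interval with 3 peaks was on chromosome 3 (103525117 to 105365712) to the left of ALCAM, which encodes a cell adhesion molecule. Its peaks of 200, 500 and 200 bp had best ITRs with 2, 0 and 1 mismatches, the exact ITR being in the widest.

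The GENCODE annotation, which includes lncRNA genes, placed 287 of the 398 peak centres (72.1%) between genes, 98 in introns, 6 in promoters, 5 at transcription termination sites and 2 in exons. The centre lay within a lncRNA gene and no protein-coding gene in 72 peaks (18.1%) and within a protein-coding gene in 33 peaks (8.29%). For distances to a TSS, each protein-coding gene was given a single TSS, the 5′ end of the gene, and starts inside it were not used. The nearest such TSS was a median of 129188 bp from the peak centre (interquartile range 34644.5 to 292704 bp). It was never closer than 2750 bp, and 29 peaks had one within 10000 bp. Around intronic peaks the median was 67275.5 bp, and 44 of 330 peaks had a TSS within 10000 bp. These distances follow in part from the rule that chose the peaks and were not tested.

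Intergenic peaks seldom lay close together, and their spacing was not compared with that of randomly placed peaks. The distance to the nearest peak of any kind had a median of 1155850 bp (interquartile range 406025 to 2292220 bp) and ranged from 700 to 22601700 bp. For intronic peaks the median was 1284650 bp, a difference of -128800 bp (permutation test, two-sided, p = 0.308, adjusted p = 0.801). With GENCODE classes in place of the authors' categories the sign turned, to 97300 bp with all genes and 58300 bp with protein-coding genes. Counting only peaks of the same class, the difference was -852300 bp (permutation test, two-sided, adjusted p = 0.0373). Here the classes also differ in number, and the alternatives tried were not corrected for as a set. The nearest peak was intergenic for 233 of the peaks, intronic for 151 and in a promoter for 14. Between successive intergenic peaks on a chromosome, 17 of 375 gaps (4.53%) were at most 100000 bp and 2 were at most 10000 bp. Among intronic peaks 10 of 307 gaps (3.26%) were at most 100000 bp.

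The closest peaks lay on chromosomes 6 and 19. On chromosome 6 the peaks, 500 and 700 bp wide, were 2100 bp apart between ARHGAP18 and TMEM244. In each, both ITRs had 0 mismatches, as in 11 of the 246 pairs. On chromosome 19 the peaks, each 200 bp wide, were 700 bp apart, between SULT2A1, which encodes a sulfotransferase of steroids and bile acids, and BSPH1. The first held a single ITR, the second held an inverted pair, and the best ITR of each had 1 mismatch.

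Intergenic peaks were found on all 23 chromosomes examined, 4 to 40 on each. Chromosome 2 held the most (40 peaks), followed by chromosome 4 with 39 and chromosome 1 with 34. Per 100 Mb of sequence outside gaps, autosomes held 6.03 (chromosome 17) to 22.98 (chromosome 22) intergenic peaks with a median of 14.7, and X held 2.58. Over 22 autosomes the number of intergenic peaks correlated with chromosome length (Spearman coefficient 0.882, Pearson r 0.888) and with the number of GENCODE intergenic ITRs (Spearman coefficient 0.910, Pearson r 0.898). With X added the Spearman coefficients were 0.771 and 0.713. The points of these correlations share a library and its depth, and are given as a description.

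On 16 chromosomes intergenic peaks outnumbered intronic peaks and on 7 they were fewer. Their share of both was highest on chromosome 22, at 81.8% (9 and 2 peaks, 95% Wilson interval 52.3 to 94.9). They made up 71.1% on chromosome 5 (32 and 13 peaks, 95% Wilson interval 56.6 to 82.3) and 68.4% on chromosome 4 (39 and 18 peaks, 55.5 to 79.0). The share was lowest on chromosome 17, at 27.8% (5 and 13 peaks, 12.5 to 50.9), and was 34.6% on chromosome 11 and 35.5% on chromosome 7. Over all chromosomes the difference in distribution did not pass after adjustment (chi-square statistic 33.8, permutation test, p = 0.0471, adjusted p = 0.204).

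Chromosomes 11 and 7 also held the longest gaps between successive intergenic peaks, not counting the stretches before the first and after the last peak of a chromosome. On chromosome 11 no intergenic peak lay between 32114300 and 93300001, a stretch of 61185700 bp that holds 75 intergenic ITRs, 4 of them with 0 mismatches, and 10 peaks of other classes. Of all 232 ITRs there, 16 lay in a peak, as did 5 of the 13 with 0 mismatches. On chromosome 7 the stretch from 69190500 to 123210101 held 71 intergenic ITRs, 0 of them with 0 mismatches, and 12 peaks of other classes. Of all 233 ITRs there, 19 lay in a peak, as did 6 of the 12 with 0 mismatches. How much of either stretch was left out by blacklisting was not measured. Of all intergenic ITRs by the GENCODE annotation, 4.22% on chromosome 11 and 6.27% on chromosome 7 lay in a peak. On autosomes this share was highest on chromosome 22, at 28.1% (9 of 32 ITRs, 95% Wilson interval 15.6 to 45.4), with a median over autosomes of 11.1%.

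Chromosome X had few intergenic peaks for its ITRs. Of 326 intergenic ITRs on X, 7 lay in a peak (2.15%, 95% Wilson interval 1.04 to 4.37), and of 4000 on autosomes 467 did (11.7%, 10.7 to 12.7). Of those with 0 mismatches it was 3 of 37 on X (8.11%, 2.80 to 21.3) and 129 of 262 on autosomes (49.2%, 43.2 to 55.3). The intervals of X and autosomes did not overlap in either count, and no test was made because the low number on X was known from earlier results of these data.

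The 4 intergenic peaks on X were 300 to 500 bp wide and had the following best ITRs, with mismatched bases in capitals and each ITR on its own strand.
chrX:71181547-71181565, plus strand: ggtgcaaaagtaatGgcgg
chrX:100249280-100249298, minus strand: ggtgcaaaagtaattgcgg
chrX:107698527-107698545, plus strand: ggtgcaaaagtaattgcgg
chrX:134861721-134861739, minus strand: ggtgcaaaagtaattgcgg
Only the first was not an exact match, carrying T15G, and its inverted partner carried T15G as well. That peak lay between NLGN3, which encodes a neuroligin, at 6146 bp, and GJB1, which encodes a connexin, at 31011 bp. The third lay 14521 bp from TSC22D3, which encodes a glucocorticoid-induced leucine zipper protein.

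The base composition around intergenic peaks was near that around intronic peaks. In 1 kb around the peak centre GC content had a median of 38.3% (interquartile range 34.3 to 42.7%, range 26.2 to 61.6%), and the whole reference was at 40.9%. Intronic peaks had a median of 38.5% and a range of 26.4 to 56.2%, and the means differed by -0.0848 percentage points (95% interval -0.908 to 0.738; permutation test of medians, two-sided, p = 0.830, adjusted p = 1). In 10 kb windows the medians were 39.3% and 39.5%.

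The input list, the control, shared no site with the intergenic peaks. None of its 63 peaks on these chromosomes overlapped an intergenic peak, as the authors had removed ChIP peaks found in the input, and none lay within 100 kb of one. The median distance was 5146700 bp, and the nearest input peak, on chromosome 8, was 1321300 bp away. Of the 63 input peaks, 41 were on chromosomes 16, 1 and 10.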

How the data were processed

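SETMAR-HA binding was measured by anti-HA ChIP-seq in HAP1 cells, with 1 ChIP list and 1 input list. Per the methods and the submitters' processing notes, the authors aligned their reads with Bowtie2 2.3.4.1 to the GRCh38 (hg38) genome, removed duplicates with Picard, filtered blacklisted repeats, computed coverage in 100 bp bins with deepTools 3.3.1, called peaks with MACS2 2.2.6, dropped those also called in the input (bedtools 2.29.0) and annotated them by HOMER categories. Blacklisting and the input filter removed repetitive regions, so ITRs there could not be counted as bound. The deposited lists hold positions and annotations without height, score or depth, and whether replicates were pooled before peak calling is not given in the sources used here. Starts are printed counted from 1.

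The 19-nt ITR consensus was searched on both strands with at most 3 mismatches. A pair was a plus-strand ITR followed by a minus-strand ITR within 500 bp, and an ITR was in a peak when it shared at least 1 base with the peak extended by 500 bp. GENCODE release 44 placed ITRs and peak centres, with promoters from 1000 bp before to 100 bp after a TSS. Medians, or means where named, were compared by permuting peak labels (100000 resamples), shares by Fisher's exact test and ITR shares by a Cochran-Mantel-Haenszel test. All tests were two-sided. The tools were scipy 1.17.1, statsmodels 0.14.6, numpy 2.4.6 and pandas 2.3.3 in Python 3.11.15, and the tests were tried on simulated data first. Since the peaks come from a single list, p-values describe that list and not the spread between experiments.

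Regions are named by a rule: those on X, the 3 widest, those with more than 2 mismatches, those within 10 kb of another, those in the 3 longest intervals, intervals with at least 4 peaks, exact pairs and first examples of each arrangement. Some sequences are not reported here. The other 3 peaks of 900 bp and the interval of 3 peaks were added after their values were seen. The members, lists and tests were chosen with earlier results of these data known.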

Additional observations from a re-analysis of the deposited data

How the results depend on the processing

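Over 52 alternatives for 13 results, 42 neither turned the sign nor crossed the threshold, counting those in which the main or the alternative difference was 0. The difference between intergenic and intronic peaks turned sign, without passing, in 8. With GENCODE classes of all genes and of protein-coding genes, the share of peaks at least 500 bp wide differed by -1.09 and -1.28 percentage points, the share with an ITR of 0 mismatches by -1.53 and -1.13 percentage points, and the distance to the nearest peak by 97300 and 58300 bp. A width limit of 600 bp gave -2.59 percentage points, and among peaks at least 500 bp wide the share with inverted pairs differed by -3.54 percentage points. The cause was not tested. Two-sided permutation tests passed under 2 alternatives, each adjusted in place of its main test among the 13 and not over the 52 alternatives. The distance to the nearest peak of the same class differed by -852300 bp, shorter for intergenic peaks (permutation test, adjusted p = 0.0373), where the classes also differ in number (398 and 330). Width by best ITR as a difference of means was 73.4 bp (permutation test, adjusted p = 0.000520). No paired analysis was possible because there is 1 library per group, and for the same reason no replicate could be left out. Without peak heights or depth, a site outside the list cannot be called unbound.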
